A study of Mus musculus with 12 samples.

Results

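MiRNAs that are best known from nerve cells, mmu-miR-124, mmu-miR-9, mmu-miR-137, mmu-miR-153, mmu-miR-128a and mmu-miR-7b, were followed in murine pulmonary endothelial cells. They are 6 of the 375 miRNA assays of the array and were found by the assay name. MiR-124 was chosen by its mean level against the control, which was lower after both stimulations, and the other 5 members stand beside it as neuron-enriched miRNAs. The RNA came from 12 TaqMan low-density arrays, with 4 arrays in each of 3 groups. The endothelial cells were isolated with antibodies to CD144 and CD31 from lungs of male C57BL/6N wild type mice aged 6 to 10 weeks, with 3 mice pooled for an isolation, and were grown in culture to confluence. The control group was left unstimulated, the Tri-DAP group received the NOD1 ligand Tri-DAP and the MDP group the NOD2 ligand MDP, each at 10 μg/mL for 6 hours according to the methods. All 3 groups were wild type, and all were kept in medium with little serum before the stimulation.

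NOD1 and NOD2 are receptors in the cytosol that bind fragments of bacterial peptidoglycan and activate NF-κB. A miRNA pairs through its seed, the bases near its 5′ end, with sites in mRNAs and lowers their output. MiR-124 is very abundant in neurons, where it represses many transcripts of non-neuronal cells, among them that of the splicing factor Ptbp1, and outside the nervous system its genes are held down by the repressor REST. MiR-9 is made in neural progenitors and neurons and targets REST, and in monocytes it is known to be induced through NF-κB. MiR-137 and miR-128 act in neuronal differentiation and excitability, while miR-153 and miR-7 both repress α-synuclein.

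The mature sequences are shown because the assays read these RNAs and because the seed decides which mRNAs a miRNA can pair with. Capitals mark the seed, bases 2 to 8 counted from the 5′ end, and the sequences are those of RefSeq on GRCm38.p6. The assay names carry no arm, and the arm shown is the one that the older name without a star stands for. Sequences were found for 5 of the 6 members, all but miR-124. MiR-7a, which is no member, is added for its likeness to miR-7b.
miR-9: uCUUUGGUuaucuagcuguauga
miR-137: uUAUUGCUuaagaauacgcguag
miR-153: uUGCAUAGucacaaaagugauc
miR-128a: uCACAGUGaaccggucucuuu
miR-7b: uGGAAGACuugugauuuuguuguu
miR-7a: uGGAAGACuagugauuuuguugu
The 5 members have 5 different seeds, so that they do not form a seed family. Within the RefSeq table no other mature mouse miRNA shares the seed of miR-9, miR-137, miR-153 or miR-128a, while miR-7b shares its seed with miR-7a alone. From miR-7a to miR-7b there is 1 substitution, A10U counted from the 5′ end, and miR-7b has 1 further base at its 3′ end.

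The 5 members with a sequence are encoded apart from each other, and the loci of miR-124 were not looked at. MiR-9 has 3 loci on the plus strand, Mir9-1 at chr3:88215613-88215635, Mir9-3 at chr7:79505279-79505301 and Mir9-2 at chr13:83738821-83738843, each within the span of a long non-coding RNA gene. MiR-128a, now named miR-128-3p, has 2 loci. Mir128-1 at chr1:128202404-128202424 on the plus strand lies within the span of R3hdm1, and Mir128-2 at chr9:112118644-112118664 on the minus strand within that of Arpp21. Mir153 at chr12:117250860-117250881 on the plus strand lies within the spans of a long non-coding RNA gene and of Ptprn2, which encodes a protein of secretory vesicles. Mir137 at chr3:118433901-118433923 and Mir7b at chr17:56243017-56243040, both on the plus strand, lie within no other gene span of the table. The table gives gene spans and not exons, so that exonic and intronic positions were not told apart.

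The readout of an assay is its threshold cycle (Ct), the PCR cycle by which enough product has formed to be seen. Abundant miRNAs have a low Ct, 1 cycle corresponds to a factor of 2, and wells without enough product by the end are listed at 40 and called undetermined here. Levels are given as Ct, or on a log2 scale relative to U6, a small nuclear RNA measured in 4 wells of every array. Undetermined wells were left out of means. Between 231 and 254 of the 375 miRNA assays were measured per array. The mean Ct of U6 lay between 18.3 and 21.6, and the SD of its wells within an array between 0.11 and 2.05 cycles. The endothelial miRNAs miR-126-3p and miR-126-5p were measured on all arrays with mean Cts of 19.7 and 21.3. Mural miR-143 and miR-145 were measured on all arrays too, and epithelial miRNAs of the miR-200 group were measured in 54 of 60 wells, leukocyte miRNAs in 35 of 48 and erythroid miRNAs in 5 of 24. In bulk RNA of this kind, fewer cells that contain a miRNA and less of it per cell cannot be told apart.

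Of the 72 wells of the 6 members, 50 were measured. MiR-124, miR-9 and miR-128a were measured on all 12 arrays, miR-7b on 10, miR-137 on 4 and miR-153 on none. MiR-124 had the earliest mean Ct with 30.1 ± 2.298 (SD, n = 12), followed by miR-9 with 31.6 ± 1.27 (SD, n = 12) and miR-128a with 33.1 ± 0.99 (SD, n = 12). Of the 320 miRNAs measured at least once, 41.6% had an earlier mean Ct than miR-124 and 79.7% an earlier one than miR-7b. The members are therefore mid-range to late signals on the array, far behind miR-126-3p. Assays differ in efficiency, so that Cts rank different miRNAs only roughly. On the same array miR-124 was earlier than miR-9 on 8 of 12 arrays, with a gap of 1.47 ± 3.34 cycles (SD, n = 12), which is within the spread. MiR-9 was earlier than miR-128a on 10 of 12 arrays, by 1.496 ± 1.39 cycles (SD, n = 12). MiR-128a was earlier than miR-7b on 8 of the 10 arrays that measured both, by 0.81 ± 1.14 cycles (SD, n = 10), again within the spread.

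**Figure D1:**
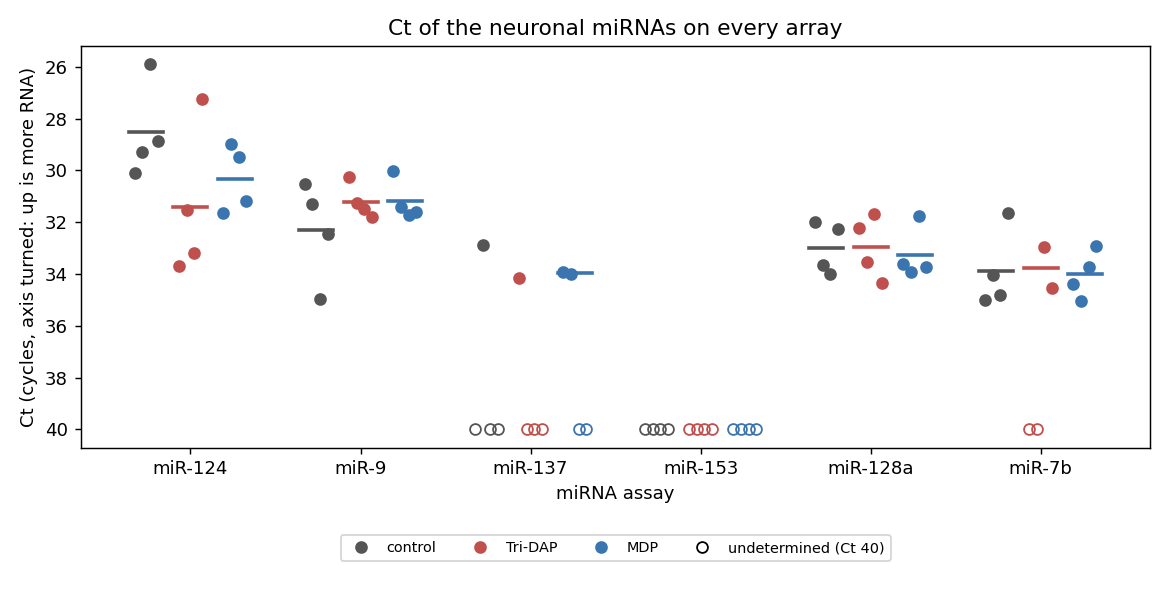
Ct in cycles for each of the 6 miRNA assays, by group, with 1 point per array, open points for undetermined wells at 40 and bars for the mean of the measured wells. The axis is turned so that more RNA is up. The 4 Tri-DAP points of miR-124 reach from 27.2 to 33.7, all 12 wells of miR-153 are undetermined, and the 2 undetermined wells of miR-7b are both after Tri-DAP.

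MiR-124 had the lower mean after both ligands by which it was chosen, and its arrays overlapped in all groups. On the control arrays 4, 7, 10 and 13 its Ct was 30.1, 29.3, 25.9 and 28.9. After Tri-DAP it was 33.7, 31.5, 33.2 and 27.2 on arrays 5, 8, 11 and 14. After MDP it was 31.7, 29.0, 29.5 and 31.2 on arrays 6, 9, 12 and 15. Control array 10 had the earliest Ct of all 12, and Tri-DAP array 14 the next one, so that the group with the lowest mean also held an array above 3 of the 4 controls. Relative to U6 the control cells had a log2 level of -8.89 ± 1.57 (SD, n = 4). It was -11.89 ± 2.87 (SD, n = 4) with Tri-DAP and -10.67 ± 1.18 (SD, n = 4) with MDP. The log2 difference from control was -3.00 with a standard error of 1.26 after Tri-DAP, or 7.97-fold lower, and -1.77 with a standard error of 1.26 after MDP, or 3.42-fold lower. As the direction of these differences is what the choice of miR-124 used, they are a description and no test is given.

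A lower mean was common on these arrays. After Tri-DAP 75.1% of the 237 miRNAs that had at least 2 measured values in both groups lay below the control in mean, after MDP 54.1% of 244. Below the control after both were 118 of the 235 miRNAs compared in both, which is 50.2%. More than 2-fold below it after both were 9 of 235, or 3.83%, with miR-124 among them. Lower by more than 2-fold were 16.5% after Tri-DAP and 6.15% after MDP. None of the 181 miRNAs measured on all 8 arrays of a comparison had groups without overlap. Both comparisons use the same 4 control arrays. Over all miRNAs the median log2 difference was -0.24 for Tri-DAP and -0.02 for MDP.

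The size of the miR-124 difference depended on single arrays. Without control array 10 it was -2.24 after Tri-DAP and -1.02 after MDP. When other arrays were left out in turn, the value after Tri-DAP reached from -3.98, when Tri-DAP array 14 was omitted, to -2.08, when array 11 was, and that after MDP from -2.34 (array 9 omitted) to -1.499 (array 15 omitted). The reference had less influence. With the array mean, taken over the 174 miRNAs found on every array, as the reference the differences were -2.76 and -1.74, and with no normalization -2.88 and -1.79. All 12 wells of miR-124 lay before Ct 35, so that neither the treatment of undetermined wells nor a limit at Ct 35 touched its values.

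**Figure D2:**
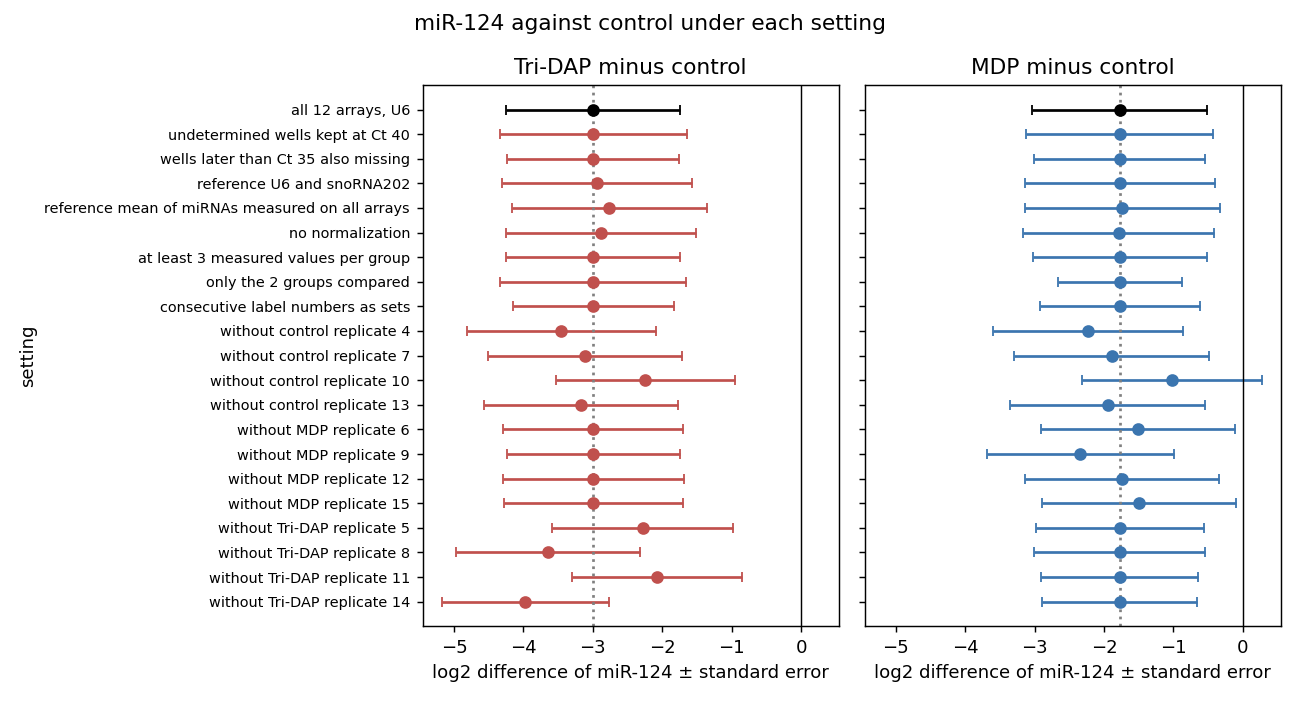
Log2 difference of miR-124 from control after Tri-DAP (left) and after MDP (right), with the standard error from limma as bars, for the fit of all 12 arrays relative to U6 (black) and for each other setting (coloured). All values lie below 0, the direction by which miR-124 was chosen, from -3.98 to -2.08 on the left and from -2.34 to -1.02 on the right.

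Among the other members, miR-9 lay above the control in mean, and miR-128a and miR-7b lay below it by less than miR-124. MiR-9 had the higher mean after both ligands, with a log2 difference of 0.99 (95% interval -1.54 to 3.52) after Tri-DAP and of 1.14 (-1.39 to 3.67) after MDP. Its Ct on the control arrays 4, 7, 10 and 13 was 30.5, 31.3, 34.96 and 32.5, while the 8 stimulated arrays lay between 30.0 and 31.8. The groups overlapped, and control array 10 had the latest Ct by far. Without that array the difference was -0.022 after Tri-DAP and 0.13 after MDP. Control array 10 was the array with the most miR-124 and the least miR-9.

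MiR-128a differed by -0.08 (95% interval -1.94 to 1.78) after Tri-DAP and by -0.26 (-2.12 to 1.60) after MDP on the log2 scale. Its Ct ranged from 32.0 to 34.0 in control cells, from 31.7 to 34.3 after Tri-DAP and from 31.8 to 33.9 after MDP, so that the 3 groups covered nearly the same cycles. The direction after Tri-DAP turned with the array mean as the reference, to 0.15, and with no normalization, to 0.036.

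MiR-7b was measured on the control arrays 4, 7, 10 and 13 with Cts of 35.02, 34.0, 34.8 and 31.6 and on the MDP arrays 6, 9, 12 and 15 with 34.4, 35.04, 33.7 and 32.9. After Tri-DAP it was measured on arrays 11 and 14 with 33.0 and 34.6 and was undetermined on arrays 5 and 8. Over the measured wells the log2 difference was -1.10 (95% interval -3.38 to 1.18) after Tri-DAP and -0.12 (-1.98 to 1.74) after MDP. The value after Tri-DAP leaves out the 2 undetermined wells. With these kept at Ct 40 it was -3.11 and passed an unadjusted p under 0.05 in limma (Benjamini-Hochberg adjusted p = 0.998). At that setting 7 of the 310 miRNAs tested passed it. With no normalization and the wells left out the difference was 0.12. MiR-7a, with the same seed, was measured on 10 arrays and was undetermined on control array 7 and Tri-DAP array 8. Its log2 difference was 0.34 with a standard error of 0.93 after Tri-DAP, and 0.63 with a standard error of 0.87 after MDP.

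MiR-137 was measured on control array 7 (Ct 32.9), Tri-DAP array 5 (34.2) and the MDP arrays 6 (33.9) and 9 (34.0), and was undetermined on the other 8, so that it was not tested. MiR-153 reached no threshold on any array, as did 55 of the 375 miRNA assays.

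In the limma fit of all 12 arrays, 0 of the 3 members tested beside miR-124 passed an unadjusted p under 0.05 after Tri-DAP or after MDP, where 1.69% of the 237 and 1.23% of the 244 miRNAs tested did so. The adjusted p was 0.998 for miR-9, miR-128a and miR-7b after Tri-DAP and 0.9997 for each after MDP (limma, Benjamini-Hochberg over all miRNAs tested). The methods' t-test called 0 of them as well. The intervals of this fit are several log2 units wide, and changes of 2-fold in either direction lie within all 6 of them. They are narrower for miR-9 when arrays of consecutive label numbers are taken as sets in the fit, as described further on.

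In the direct comparison of the ligands, which was not used to choose miR-124, it was 1.22 higher after MDP than after Tri-DAP on the log2 scale (95% interval -1.52 to 3.96), which did not pass the test (adjusted p = 0.998 from limma). The value ran from 0.30 with Tri-DAP array 11 left out to 2.20 with Tri-DAP array 14 left out. MiR-9 differed by 0.15 (-2.40 to 2.70), miR-128a by -0.18 (-2.06 to 1.69) and miR-7b by 0.98 (-1.31 to 3.27) in the same comparison. In limma 0 of the 4 members tested passed an unadjusted p under 0.05, which 2.9% of the 241 miRNAs tested did.

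MiR-124 can also be set against another member on the same array, which needs no reference. In control cells its log2 level lay 4.45 ± 2.65 (SD, n = 4) above that of miR-128a. The gap was 1.53 ± 4.08 (SD, n = 4) with Tri-DAP and 2.93 ± 1.37 (SD, n = 4) with MDP. On single arrays it ran from 1.89 to 8.11 in control cells, from -1.53 to 7.12 after Tri-DAP and from 1.97 to 4.97 after MDP, so that the groups overlapped. Over miR-9 the means were 3.77, -0.21 and 0.86, and control array 10 stood at 9.06, against 0.42 to 3.60 on the other control arrays. Since miR-124 was chosen for its means, these ratios carry no test.

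MiR-124 varied widely within each group. The SD of its Ct within groups was 2.14 cycles, the 14th largest among the 174 miRNAs measured on all arrays, whose median was 0.78. Of the 42 miRNAs with a mean Ct within 1 cycle of it, miR-124 itself included, 6 had a larger SD, and their median was 0.87. The SD of miR-9 was 1.27 and that of miR-128a 1.08.

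The labels number the arrays from 4 to 15, and 4 sets of consecutive numbers each hold a control, a Tri-DAP and an MDP array. The arrays came from 4 independent isolations, which would match 4 sets of 3 arrays, but no source ties an isolation to a label number, and the sets were formed only after the values had been seen. Many miRNAs nevertheless followed them. Mural miR-145 was between Ct 23.1 and 23.5 on arrays 13 to 15 and between 31.8 and 33.1 on arrays 7 to 9, and neuron-enriched miR-132 between 25.3 and 25.4 and between 29.0 and 29.3 on the same arrays. MiR-9 followed the sets as well, with ranges of 0.48, 0.13 and 0.86 cycles in the sets of arrays 4 to 6, 7 to 9 and 13 to 15, and of 3.48 cycles in that of arrays 10 to 12, where control array 10 stood apart. For miR-124 the range within a set was at least 2.57 cycles and reached 7.30 on arrays 10 to 12. These ranges include the differences between groups by which miR-124 was chosen.

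After group and array means were removed, sets held 28.4% of the variance of miR-124 and 30.1% of that of miR-128a, where 3 of 9 degrees of freedom would give 33.3%. For miR-9 the share was 81.6%, for miR-132 99.0% and for the median of the 174 miRNAs 76.2%. Within the 4 sets, in the order of their numbers, miR-124 relative to U6 was -3.76, -0.69, -8.00 and 0.47 after Tri-DAP against the control of the set, and -1.17, 0.28, -4.12 and -2.08 after MDP. MiR-124 was lower in 3 of 4 sets after either ligand, with the largest difference in the set of control array 10. As its choice used the direction of these differences, the count is a description and lends them no support. With the sets in the limma fit, the log2 difference of miR-9 had a 95% interval of -0.48 to 2.46 after Tri-DAP and of -0.34 to 2.62 after MDP, which leaves out a 2-fold fall and still holds 0. Those of miR-128a, -1.86 to 1.70 and -2.04 to 1.51, and of miR-7b, -3.88 to 1.09 and -1.99 to 1.75, still held changes of 2-fold either way. In that fit 0 of these 3 members passed an unadjusted p under 0.05 (adjusted p = 0.997 after Tri-DAP and 0.999 after MDP).

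**Figure D3:**
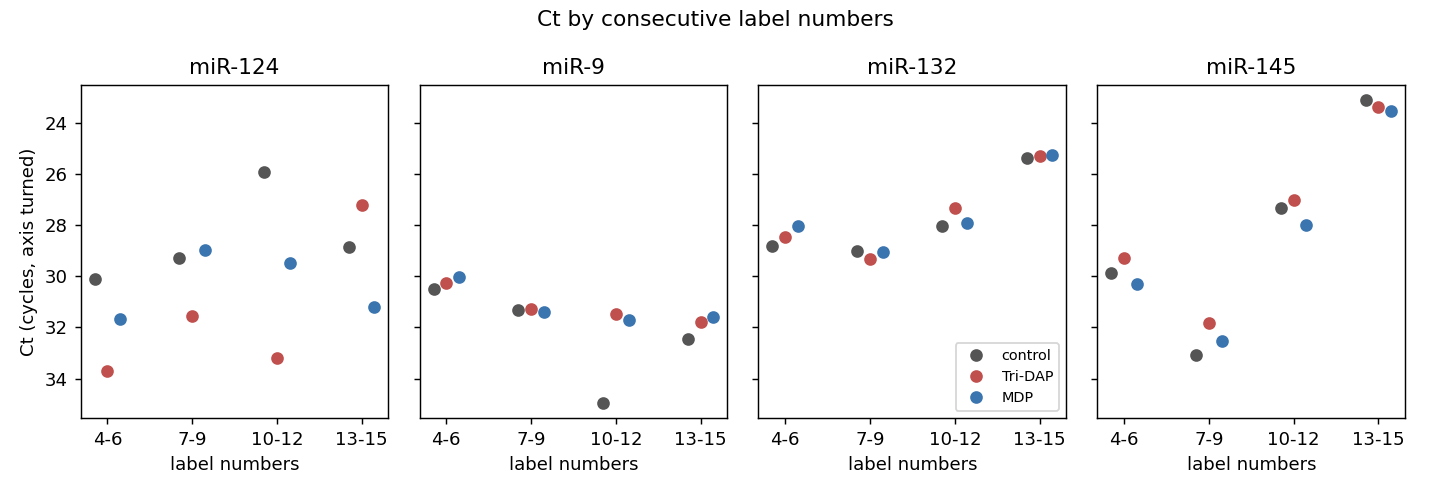
Ct in cycles of miR-124, miR-9, miR-132 and mural miR-145 by sets of consecutive label numbers, with 1 point per array and colours for the groups, and the axis turned so that more RNA is up. The 3 points of a set lie close together for miR-132 and miR-145 and, apart from control array 10, for miR-9, whereas those of miR-124 are spread over 2.57 to 7.30 cycles. The spread of miR-124 includes the differences between groups by which it was chosen.

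A wider list of neuron-enriched miRNAs put the members in context. Of its 25 names the array carries 17, and these were measured in 121 of 204 wells. The list comprised 5 miRNAs measured on all arrays. These were miR-138, which acts at dendritic spines and had a mean Ct of 27.3, miR-132, which responds to CREB (27.7), miR-218 of motor neurons (28.6), miR-134, another dendritic miRNA (30.0), and miR-129-3p (30.3). Each but miR-129-3p had an earlier mean Ct than miR-124. After Tri-DAP the log2 differences of these 5 lay between -0.11 and 0.10, and after MDP between -0.05 and 0.66 for miR-134.

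Over the whole list, 5 of 10 miRNAs tested were lower and 5 higher than in the control after Tri-DAP, with a median log2 difference of 0.01 beside -0.24 for all miRNAs. After MDP 5 of 11 were lower and 6 higher, with a median of 0.04 beside -0.02. In the limma fit 0 of them passed an unadjusted p under 0.05 in either comparison. The lowest values after Tri-DAP were -1.34 for miR-487b, -1.15 for miR-135a and -1.03 for miR-384-5p, each of which was undetermined on 3 or more arrays.

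**Figure D4:**
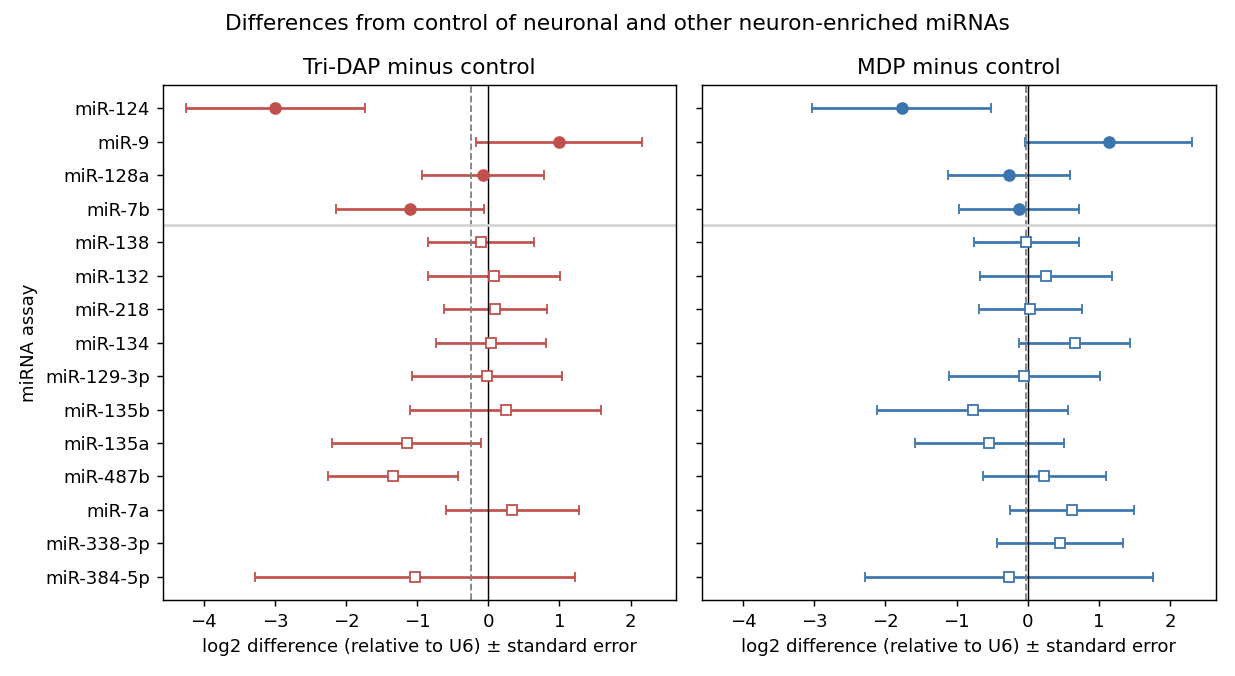
Log2 difference from control relative to U6, with the standard error from limma as bars, after Tri-DAP (left) and MDP (right). Filled circles are the 4 members with at least 2 measured values in both groups. Open squares are the other neuron-enriched miRNAs in the order of their mean Ct. The dashed line is the median of all miRNAs tested, at -0.24 and -0.02. MiR-124, which was chosen for its lower means, lies lowest in both panels, at -3.00 and -1.77.

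The miRNAs whose pattern was most like that of miR-124 were sought among the 229 measured on at least 8 arrays together with it. The highest Pearson's r of the log2 levels relative to U6 were 0.69 for miR-380-5p and 0.65 for miR-384-5p, each over 8 arrays, 0.61 for miR-23a over 10, and 0.52 for miR-127 and 0.49 for miR-687 over 12. MiR-380-5p was undetermined on arrays 4, 6, 8 and 10, and miR-384-5p on arrays 4, 5, 14 and 15. Their r thus leaves out control array 10, with the earliest Ct of miR-124, and Tri-DAP array 14, with the next one, respectively. Where measured, miR-380-5p lay between Ct 32.1 and 34.7 and miR-384-5p between 30.9 and 39.3. The points of each r share arrays and the U6 value of each array, and the correlations are given as a description. With the array mean as the reference, miR-380-5p and miR-384-5p stayed in front, with 0.74 and 0.65. The other members ranked near the end, with r = -0.40 for miR-9 (rank 223 of 229), -0.44 for miR-128a (226) and -0.29 for miR-7b (215). The r of miR-9 includes control array 10, which had the most miR-124 and the least miR-9, and no r was taken without it. MiR-9 and miR-128a had an r of 0.61 with each other over 12 arrays, and of 0.37 with the array mean as the reference.

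Levels of markers of other cells stand beside these values, and ranges over arrays are given for the muscle, epithelial and mural lists only. Neuroendocrine miR-375 was measured on 1 control array, 4 Tri-DAP arrays and 1 MDP array. These were late signals between Ct 33.4 and 35.4, with mean log2 levels of -14.95, -15.07 and -15.13 in the measured wells. For these lists the levels relative to U6 were summed on each array, undetermined wells adding nothing, and the log2 of the sum is given. For the muscle miRNAs miR-1, miR-133a and miR-133b it ran from -12.04 to -9.08 on 3 control arrays. It ran from -16.06 to -13.70 on 4 Tri-DAP arrays and from -11.32 to -7.44 on 3 MDP arrays. On the remaining control array and the remaining MDP array none of these miRNAs was measured. The ranges leave out these arrays, which had the least signal, and with them the groups were not apart. MiR-133b was undetermined on all arrays but 1. The epithelial sum ran from -11.94 to -5.72, from -10.09 to -8.36 and from -9.78 to -6.70 in the 3 groups, and the mural sum from -10.02 to -3.28, from -8.51 to -4.70 and from -10.12 to -3.39. Their part in the values of miR-124 was not tested.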

How the data were processed

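RNA of 12 arrays was grouped by the treatment in the labels, where every array has a number of its own. The methods name a rodent primer pool and an automatic threshold. The authors deposited Ct values, a score in cycles that is not normalized and stands at 40 where no threshold was reached. The deposited normalized values, on a log2 scale, subtract from each Ct the array's U6 mean, which was checked on all 384 wells. The authors' table of fold changes between groups was not used. Here the sign of the normalized values was turned and wells at 40 were set missing. MiRNAs with at least 2 measured values in both groups were fitted with limma 3.58.1 (R 4.3.3; lmFit, then eBayes), all 12 arrays in 1 fit without a block, and p-values were adjusted by Benjamini-Hochberg over all miRNAs tested. Intervals are from the same fit at 95%. The fit was tested on simulated data drawn independently for each well, so that spread shared by sets of arrays was not covered. The p-values measure the spread between the arrays. Depth is described by the number of measured miRNAs, and the number of arrays limits the precision. Alternatives covered undetermined wells, references, required values, groups in the fit, the test and leaving out each array. Named were the members, the neuron-enriched miRNAs measured on all arrays or called, and the 5 miRNAs most like miR-124. MiR-135a, miR-487b and miR-7a were named after their values were seen. The members and lists were chosen with earlier results of these data known.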

Additional observations from a re-analysis of the deposited data

Results flagged for a closer look

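In 3 of 26 groups of 4 arrays examined, 1 array lay far from the other 3, where chance gives about 1.3 (1 in 20). All 3 belong to neuron-enriched miRNAs outside the 6 members. Relative to U6, miR-129-3p stood at -12.75 on the log2 scale on control array 10, while the remaining controls lay between -9.95 and -9.92. It stood at -13.04 on MDP array 12, while the remaining MDP arrays lay between -10.12 and -9.74. MiR-132 stood at -5.91 on control array 13, and the remaining controls between -8.98 and -8.78. Why these values stood apart was not tested, and the sets named next were formed after the values had been seen. The Ct of miR-132 was 25.4, 25.3 and 25.3 on arrays 13, 14 and 15, which form 1 set of consecutive label numbers. Arrays 10 and 12 likewise belong to 1 set. After group and array means were removed, sets held 99.0% of the variance of miR-132 and 97.2% of that of miR-129-3p.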

How the results depend on the processing

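The negative difference of miR-124 kept its sign under all settings tried, between -3.98 and -2.08 after Tri-DAP and between -2.34 and -1.02 after MDP with single arrays left out. This sign is what miR-124 was chosen by, and the settings reuse the same arrays. That it was kept is therefore no support for a change. The number of members called was 0 in each comparison, and 1 (miR-7b) with undetermined wells kept at Ct 40, both for Tri-DAP against control and for MDP against Tri-DAP, where its value was 2.99. At that setting 7 of the 310 miRNAs tested were called for Tri-DAP against control and 6 of 313 for MDP against Tri-DAP. After adjustment 0 were called in either comparison. With the array mean as the reference, miR-128a after Tri-DAP turned to 0.15 and miR-9 between the ligands to -0.048. With no normalization, miR-128a after Tri-DAP turned to 0.036, miR-7b after Tri-DAP to 0.12 and miR-7b between the ligands to -0.26. The causes were not tested. With 1 array left out, values after Tri-DAP ran from -0.022 (without control array 10) to 1.65 for miR-9 and from -0.57 to 0.81 for miR-128a, and after MDP from -0.73 to 0.13 for miR-128a and from -0.57 to 0.56 for miR-7b. Between the ligands they ran from -0.47 to 0.82 for miR-9 and from -1.07 to 0.31 for miR-128a. By Spearman's rho, 3 of the 5 miRNAs most like miR-124 remained. Over all miRNAs, the calls at an unadjusted p under 0.05 were 4 after Tri-DAP, 3 after MDP and 7 between the ligands, and ran from 1 to 12, from 1 to 7 and from 2 to 17 with 1 array left out, each highest without Tri-DAP array 8 and lowest without Tri-DAP array 5, MDP array 15 and Tri-DAP array 14. Under the other settings they ran from 3 to 9, from 1 to 6 and from 3 to 9, each highest with sets of consecutive label numbers in the fit, which was chosen after seeing the data and called no member. That fit is the sole form of pairing tried, since groups share no number in the labels.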
